A study of Mus musculus with 2 samples.

Results

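The genes described here are 45 genes of smooth muscle, pericytes, fibroblasts, elastic fibres and mesothelium, the mesenchymal tissues that surround the epithelium of the embryonic pancreas. They were taken as a fixed list of symbols, and a gene was measured where a probe set of the array carried its symbol and no other. This held for 44 of the 45 genes, each with 1 probe set, out of 19938 genes measured in all, and *Fbn1* was not analysed here. Whole pancreata had been dissected at E15.5 from *Mafk*-Tg embryos, which carry a FLAG-tagged murine *Mafk* cDNA behind the rat insulin I promoter, and from WT embryos, both on the ICR background. The insulin promoter is active in β-cells, so mesenchymal cells are not the cells that the transgene was built to target. Affymetrix mouse gene arrays measured the RNA, and 1 *Mafk*-Tg and 1 WT array were analysed. The labels name 3 pancreata per genotype but do not say if their RNA was pooled on the array. A spread between replicates could not be had from these arrays, so no test was run, and each difference below compares 2 arrays without a replicate check. All values are on the log2 scale, and differences are the *Mafk*-Tg value minus the WT value.

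The arrays also differed in ways that touch these genes. *Mafk* had 6.997 in *Mafk*-Tg and 6.75 in WT, a difference of 0.25 that lay within the 1.2-fold cutoff used below. *Xist*, an RNA made by female cells, had 11.30 in *Mafk*-Tg and 4.40 in WT, and the Y-linked *Eif2s3y* had 2.61 in *Mafk*-Tg and 8.29 in WT. Genotype and embryo sex cannot be told apart on these arrays, and this holds for each result below. In whole tissue, fewer cells of a type and less RNA per cell cannot be told apart either.

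In smooth muscle, calmodulin-bound calcium activates myosin light chain kinase, which phosphorylates the regulatory light chain of myosin and lets the motor pull on actin filaments. The serum response factor SRF, with its coactivator myocardin, switches on many of the genes of this apparatus by binding a short A/T-rich element, the CArG box. Pericytes wrap capillaries and share part of this program, while fibroblasts secrete collagens, proteoglycans and the microfibrils on which elastin is laid down. In the fetal pancreas the mesenchyme lies around the branching epithelium and supplies signals for its growth.

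The promoters that hold a CArG box are shown because the element links SRF to contractile genes and because *Myl9*, the member with the lowest difference, has one. RefSeq promoter sequences of GRCm38.p6, 250 bases before to 50 after each start, were matched by symbol for 30 of the 45 genes. The contractile genes *Tagln*, *Myh11* and *Actg2* were among those without a sequence. The box was searched in its strict form, which reads the same on both strands, and was the only motif searched. It was found in 3 of these 30 genes, and in 488 of 27025 genes, or 1.81%, over all promoters of that length. The members are a chosen list that holds *Srf* and contractile genes, and no test compared these shares. Each sequence is a stretch of 100 bases around its boxes, 5′ to 3′ on the strand of the gene, with the CArG boxes in capitals. It runs from 206 to 107 bases before the start for *Myl9*, from 101 to 2 for *Cnn2* and from 117 to 18 for *Srf*.
Myl9, chr2:156775258-156775357, plus strand: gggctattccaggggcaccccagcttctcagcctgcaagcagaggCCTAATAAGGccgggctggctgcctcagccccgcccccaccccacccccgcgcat
Cnn2, chr10:79988499-79988598, plus strand: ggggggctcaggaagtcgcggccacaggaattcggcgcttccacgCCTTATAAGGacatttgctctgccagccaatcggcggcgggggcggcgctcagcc
Srf, chr17:46556180-46556279, minus strand: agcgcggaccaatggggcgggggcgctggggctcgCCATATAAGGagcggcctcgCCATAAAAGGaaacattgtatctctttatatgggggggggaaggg
The box of *Myl9* begins 161 bases before the start and that of *Cnn2* 56 bases before it, while *Srf* has a box at 82 and another at 62 bases. These starts are the ones the promoter sequences were built on. For *Myl9* and *Srf* they lie inside the RefSeq gene, downstream of its 5′ end. A match is a description of letters in this window, and binding was not measured here.

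Across the list, lower values in the *Mafk*-Tg array were small and widespread. Of the 44 genes, 36 had a difference below 0 and 8 above it, where 51.6% of all genes lay below 0. The median difference was -0.10, beside -0.01 over all genes. At the study's 1.2-fold cutoff, or 0.26 on the log2 scale, 5 members were lower in *Mafk*-Tg (11.4% of 44) and 0 were higher. Over all genes 10.5% were lower and 7.96% higher by this cutoff, so the number of members past it was close to the background. The study's own list of changed probe sets is shorter than the number of genes past the cutoff here. This cutoff alone therefore does not give that list. Dim probe sets pass the cutoff more often, and the members were mostly bright, with 41 of 44 at or above the median probe set level of 5.999. Among genes at or above that level, 5.87% were lower and 5.58% higher, against 5 of 41 members lower (12.2%) and 0 higher. Of these 41 members 34 had a difference below 0, beside 51.4% of genes of that level. The 5 genes past the cutoff were *Myl9*, *Pdgfrb*, *Mfap4*, *Flna* and *Fstl1*, which belong to the contractile, pericyte, elastic fibre and fibroblast groups. All 5 were also on a list that the study drew from these arrays, and their count is no separate support.

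**Figure D1:**
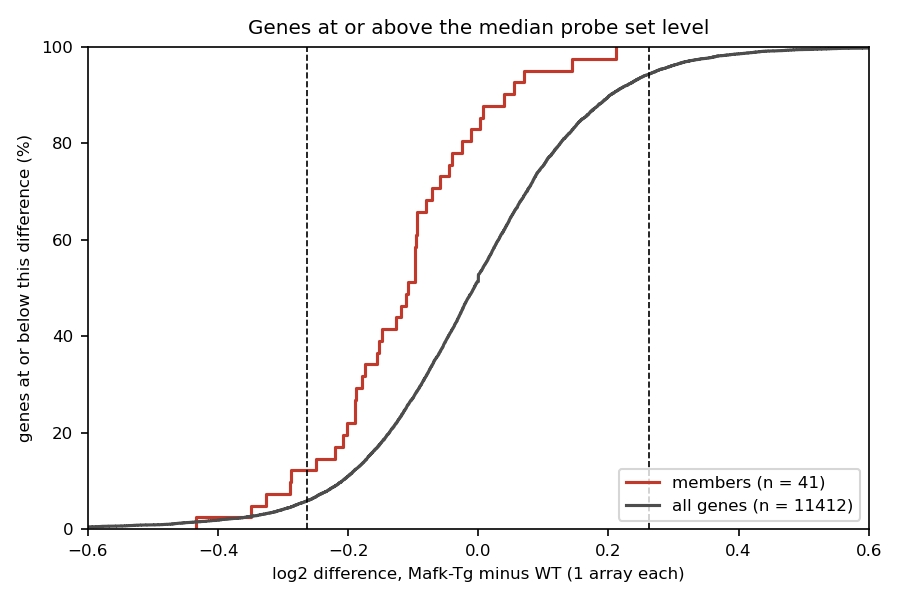
Cumulative share of genes (y axis, %) by log2 difference, *Mafk*-Tg minus WT (x axis), for the 41 members and the 11412 genes at or above the median probe set level, with 1 array of each genotype and 1.2-fold marked by dashed lines. The curve of the members lies to the left of that of all genes through most of the range, and 5 members lie left of the lower cutoff.

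Contractile filament genes were lower in the *Mafk*-Tg array in 15 of 16 cases, with a median difference of -0.11, and 2 of the 16 passed the cutoff. *Myl9*, which encodes a regulatory light chain of smooth muscle and nonmuscle myosin, had 8.03 in *Mafk*-Tg and 8.46 in WT. Its difference of -0.43, or a 1.35-fold lower value, was the lowest of all members, and 98.5% of the genes at or above the median probe set level had a higher difference. *Flna*, the gene of the actin crosslinker filamin A, had 10.42 in *Mafk*-Tg and 10.71 in WT, a difference of -0.29.

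The next contractile filament members lay inside the cutoff, *Acta2* closest to it. *Acta2*, the α-actin of vascular smooth muscle, had 9.26 in *Mafk*-Tg and 9.51 in WT, a difference of -0.25 or 1.19-fold. *Des*, which encodes the intermediate filament desmin, had 8.20 in *Mafk*-Tg and 8.42 in WT. *Cnn2*, a calponin of smooth muscle and many other cells, had 9.47 in *Mafk*-Tg and 9.66 in WT. These are shifts of 0.19 to 0.25 on the log2 scale, in the same direction as *Myl9*.

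*Myh11*, *Cnn1*, *Tagln*, *Actg2* and *Lmod1*, a grouping made with their values known, shifted less than *Acta2*, *Des* and *Cnn2*. The first 3 lay close to the contractile median of -0.11. *Smtn*, also a smooth muscle gene, had -0.15 and is given below. *Myh11*, the smooth muscle myosin heavy chain, had 6.64 in *Mafk*-Tg and 6.74 in WT, a difference of -0.10. *Cnn1*, the basic calponin that binds actin in differentiated smooth muscle, had 6.20 in *Mafk*-Tg and 6.29 in WT. *Tagln*, the gene of transgelin, had 6.44 in *Mafk*-Tg and 6.53 in WT. All 3 lay between 6.20 and 6.74 on both arrays, near the median probe set level. Whether this level bears on the size of their differences was not tested. *Actg2*, the γ-actin of visceral smooth muscle, had 6.18 in *Mafk*-Tg and 6.21 in WT, a difference of -0.03. *Lmod1*, a leiomodin that nucleates actin filaments, was below the median level with 5.22 in *Mafk*-Tg and 5.29 in WT.

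The remaining filament genes covered a similar range. *Mylk*, the light chain kinase, had 7.09 in *Mafk*-Tg and 7.24 in WT, and *Smtn*, the gene of smoothelin, had 7.55 in *Mafk*-Tg and 7.70 in WT. Both had a difference of -0.15. *Cald1*, which encodes the actin-binding caldesmon, had 8.46 in *Mafk*-Tg and 8.53 in WT. *Synpo2*, an actin-bundling gene, had 6.89 in *Mafk*-Tg and 6.95 in WT.

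Paralogs among these genes had unequal differences. The tropomyosin genes lay on opposite sides of 0, with *Tpm1* at 9.11 in *Mafk*-Tg and 9.04 in WT, a difference of 0.07, and *Tpm2* at 6.63 in *Mafk*-Tg and 6.75 in WT, a difference of -0.12. *Tpm1* was the only contractile filament gene above 0, and both lay within 1.2-fold. The calponin genes *Cnn1* and *Cnn2* had differences of -0.10 and -0.19. The smooth muscle actins *Acta2* and *Actg2* had -0.25 and -0.03. Actin genes are similar in sequence, and how far their probe sets share signal was not tested.

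Both regulators of the contractile program lay within the cutoff. *Srf* had 8.11 in *Mafk*-Tg and 8.15 in WT, a difference of -0.05. *Myocd*, the gene of myocardin, had 5.22 in *Mafk*-Tg and 5.41 in WT, below the median probe set level on both arrays. Its difference of -0.19 therefore rests on dim signal.

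**Figure D2:**
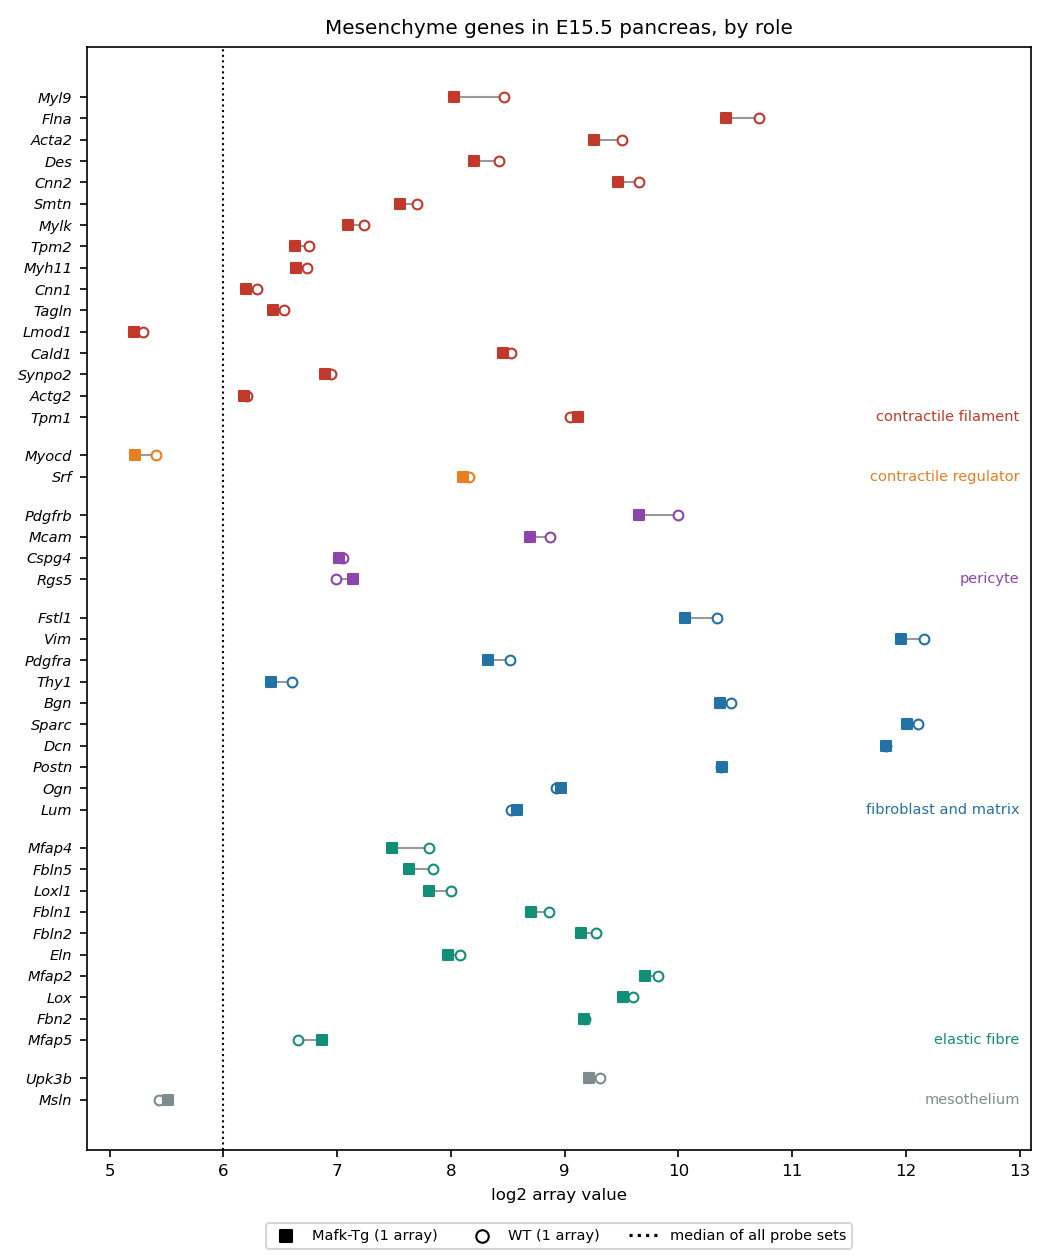
Log2 array values (x axis) of the 44 measured genes, grouped by role and ordered by difference within each role, in *Mafk*-Tg (squares) and WT (open circles), with 1 array per genotype and a dotted line at the median of all probe sets. In 36 genes the *Mafk*-Tg value lies left of the WT value, with the widest gap in *Myl9*, and 3 genes (*Lmod1*, *Myocd* and *Msln*) lie below the median of all probe sets.

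Other genes of actin dynamics and of contraction, taken from lists of known members, gave the following counts. The shares over all genes, 10.5% lower and 7.96% higher, are the background for the counts of these and later lists. Of 24 measured genes of the SRF-linked cytoskeleton, 5 were at least 1.2-fold lower and 0 higher, with a median difference of -0.12. *Tpm4*, a tropomyosin of nonmuscle cells, had 10.34 in *Mafk*-Tg and 10.81 in WT, a difference of -0.47. *Itga8*, an integrin subunit of smooth muscle and mesenchyme, had 9.02 in *Mafk*-Tg and 9.35 in WT. *Mrtfa*, the gene of an SRF coactivator that senses free actin, had 6.96 in *Mafk*-Tg and 7.26 in WT. *Fhl2* and the X-linked *Fhl1*, which encode LIM-domain proteins of muscle, were the other genes past the cutoff, with -0.29 and -0.27. *Csrp2*, a LIM-domain gene of smooth muscle, had the highest value of the list at 0.19. Of 16 measured genes of contraction signalling, 1 was lower and 0 were higher, with a median of -0.06. The lower gene was *Gucy1a1*, a subunit of the nitric oxide receptor that relaxes smooth muscle, with 8.26 in *Mafk*-Tg and 8.61 in WT. *Gucy1b1*, its partner subunit, had a difference of -0.18. *Ppp1cb*, the catalytic subunit of myosin phosphatase, had 0.18 and *Ppp1r12a*, which targets it to myosin, had -0.13, both within the cutoff.

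The pericyte members spread from the lower side of 0 to the upper. *Pdgfrb*, the receptor through which endothelial PDGF recruits pericytes, had 9.65 in *Mafk*-Tg and 9.998 in WT. Its difference of -0.35, or 1.27-fold lower, was the lowest after *Myl9*. *Rgs5*, which encodes a G-protein regulator abundant in pericytes, had 7.13 in *Mafk*-Tg and 6.99 in WT, a difference of 0.14. These pericyte genes therefore lay on opposite sides of 0. *Mcam*, a cell adhesion gene of pericytes, smooth muscle and endothelium, had 8.70 in *Mafk*-Tg and 8.87 in WT. *Cspg4*, a surface proteoglycan of pericytes, had 7.01 in *Mafk*-Tg and 7.05 in WT. The median of the 4 genes was -0.11. Of 14 other pericyte genes, 1 was lower and 1 higher, with a median of -0.01. The lower was *Ndufa4l2* at -0.45 and the higher *Gja4*, a connexin gene shared with arterial endothelium, at 0.29. *Kcnj8* and *Abcc9*, the channel subunits that mark pericytes, had differences of 0.07 and 0.12, and *Notch3*, the receptor gene of mural cells, had -0.05. *Heyl*, from the same list, had -0.21. Of the 14 genes, 7 lay below 0 and 6 above it. *Pdgfrb* is also expressed by fibroblasts.

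The fibroblast and matrix members had a median difference of -0.10, with 1 of 10 lower and 0 higher. *Fstl1*, which encodes a secreted follistatin-like glycoprotein, had 10.05 in *Mafk*-Tg and 10.34 in WT, a difference of -0.29. *Vim*, the intermediate filament of mesenchymal cells, had 11.96 in *Mafk*-Tg and 12.16 in WT. *Pdgfra*, the PDGF receptor of fibroblasts, had 8.33 in *Mafk*-Tg and 8.52 in WT. *Thy1*, a surface glycoprotein of fibroblasts, neurons and T cells, had 6.42 in *Mafk*-Tg and 6.60 in WT. The last 3 had differences between -0.20 and -0.18, inside the cutoff. *Sparc*, a collagen-binding matrix protein gene, had 12.01 in *Mafk*-Tg and 12.10 in WT.

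Some secreted matrix members lay close to 0, a grouping made after their values had been seen. *Dcn*, the gene of decorin, had 11.82 in *Mafk*-Tg and 11.82 in WT. *Lum*, the gene of lumican, had 8.58 in *Mafk*-Tg and 8.52 in WT, and *Ogn*, the gene of osteoglycin, had 8.97 in *Mafk*-Tg and 8.93 in WT. These 3 belong to the small leucine-rich proteoglycans, which bind collagen fibrils, and had differences of 0.00 to 0.05. *Bgn*, the X-linked gene of biglycan in the same family, had 10.36 in *Mafk*-Tg and 10.46 in WT, a difference of -0.10. *Postn*, which encodes the matricellular protein periostin, had 10.38 in *Mafk*-Tg and 10.38 in WT. Among relatives outside the members, *Aspn*, the gene of asporin, had 7.34 in *Mafk*-Tg and 6.90 in WT, a difference of 0.44. *Prelp* had 0.17 and *Fmod*, the gene of fibromodulin, -0.17, so the family as a whole did not run one way. *Vcan*, the gene of the large proteoglycan versican, had -0.22.

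Of 28 other fibroblast and matrix genes, 4 were lower and *Aspn* was higher by the cutoff, with a median of -0.15. *Tgfbi*, a TGF-β-induced matrix gene, had 10.13 in *Mafk*-Tg and 10.59 in WT. *Pcolce*, which enhances procollagen processing, had 8.47 in *Mafk*-Tg and 8.89 in WT. *Tcf21*, a transcription factor gene of fibroblast progenitors and of the spleen anlage, had 8.43 in *Mafk*-Tg and 8.84 in WT. *Nid1*, the basement membrane gene of nidogen, was the remaining gene past the cutoff at -0.30. The lowest of these differences, -0.47, was close to that of *Myl9*.

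Microfibril and elastic fibre genes had a median difference of -0.12, with 9 of 10 below 0. *Mfap4*, a microfibril-associated gene of elastic tissues, was the gene past the cutoff, with 7.48 in *Mafk*-Tg and 7.81 in WT and a difference of -0.33. *Mfap5*, which encodes another microfibril-associated glycoprotein, had 6.87 in *Mafk*-Tg and 6.65 in WT. Its difference of 0.21 was the highest of all 44 members. *Mfap2*, the gene of its closest relative, had 9.71 in *Mafk*-Tg and 9.82 in WT, so these related genes lay on opposite sides of 0.

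The 3 fibulin members lay below 0, while *Fbln7*, a dim relative outside the members, had 0.10. *Fbln5*, needed for elastic fibre assembly, had 7.63 in *Mafk*-Tg and 7.84 in WT, a difference of -0.21. *Fbln1* had 8.70 in *Mafk*-Tg and 8.86 in WT, and *Fbln2* had 9.15 in *Mafk*-Tg and 9.27 in WT. *Eln*, the gene of elastin itself, had 7.97 in *Mafk*-Tg and 8.08 in WT. The enzymes that crosslink elastin and collagen were *Loxl1*, with 7.81 in *Mafk*-Tg and 8.00 in WT, and *Lox*, with 9.52 in *Mafk*-Tg and 9.60 in WT. *Fbn2*, the fibrillin gene most prominent in embryonic microfibrils, had 9.17 in *Mafk*-Tg and 9.18 in WT. Of 17 other elastic fibre genes measured, 3 were lower and 0 higher, with a median of -0.15. *Emilin1*, a glycoprotein gene of the elastin-microfibril interface, had 7.26 in *Mafk*-Tg and 7.60 in WT. *Npnt*, the gene of the integrin ligand nephronectin, had 9.80 in *Mafk*-Tg and 10.08 in WT. *Ltbp2*, a microfibril gene, had -0.33 around the median probe set level, and *Ltbp1*, *Ltbp3* and *Ltbp4*, whose proteins hold latent TGF-β in the matrix, had -0.17, -0.10 and -0.13.

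The mesothelial members had the group median nearest to 0, at -0.01. *Upk3b*, a uroplakin gene of mesothelium, had 9.21 in *Mafk*-Tg and 9.31 in WT. *Msln*, the gene of mesothelin, had 5.51 in *Mafk*-Tg and 5.43 in WT, below the median probe set level. Of 12 other mesothelial genes 0 passed the cutoff in either direction, with a median of -0.08, and *Wt1*, the transcription factor gene of the mesothelial layer, had 8.83 in *Mafk*-Tg and 8.96 in WT.

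The contractile, pericyte and fibroblast groups had close medians, at -0.11, -0.11 and -0.10, and the contractile median minus the fibroblast median was -0.01. Their shares below 0 were less alike, with 15 of 16 contractile, 3 of 4 pericyte and 6 of 10 fibroblast and matrix genes. In level, the 16 contractile genes ran from 5.22 to 10.42 in *Mafk*-Tg and from 5.29 to 10.71 in WT. The 4 pericyte genes ran from 7.01 to 9.65 in *Mafk*-Tg and from 6.99 to 9.998 in WT, and the 10 fibroblast and matrix genes from 6.42 to 12.01 in *Mafk*-Tg and from 6.60 to 12.16 in WT. The 10 elastic fibre genes ran from 6.87 to 9.71 in *Mafk*-Tg and from 6.65 to 9.82 in WT. Probe sets differ in how strongly they bind, so these ranges place each group on the scale of the array and do not rank transcripts of different genes.

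**Figure D3:**
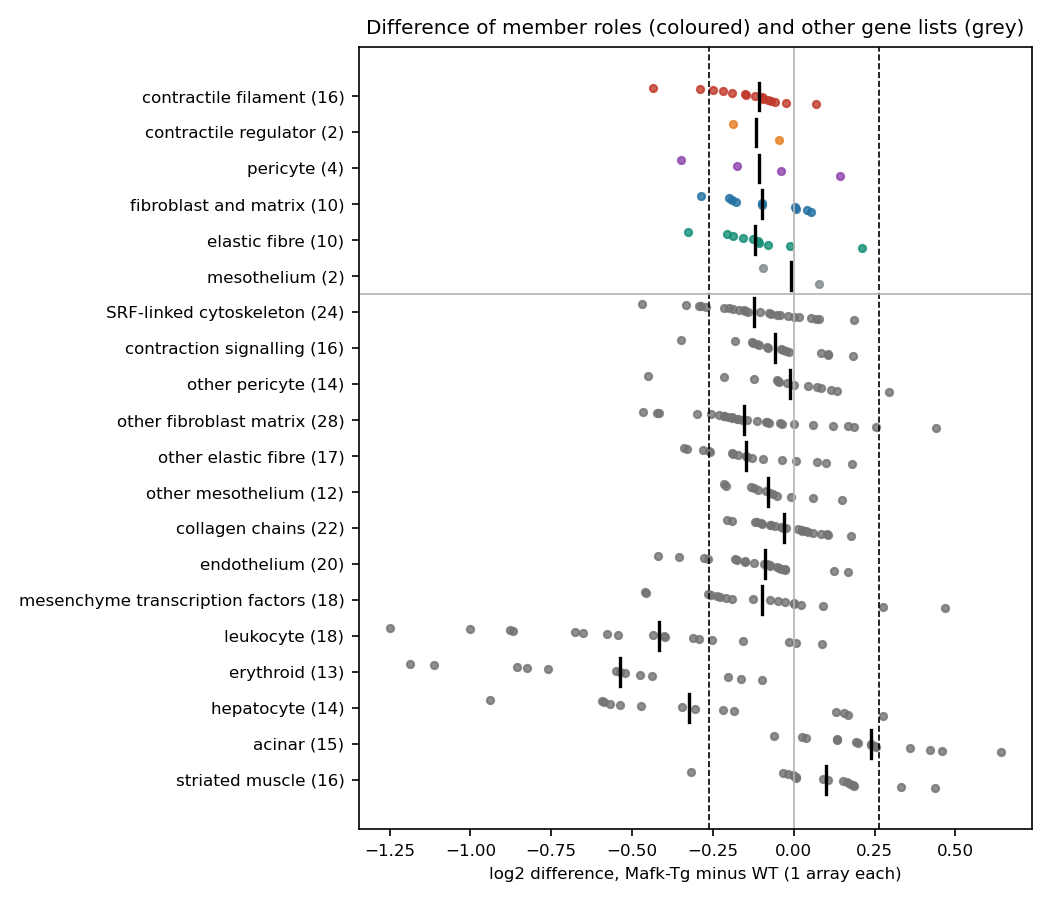
Log2 difference, *Mafk*-Tg minus WT (x axis), of each measured gene (points) and the median (black bars) for the 6 roles of the members (coloured, above the line) and 14 other gene lists (grey), with the number of genes in brackets, 1 array of each genotype and 1.2-fold marked by dashed lines. The member medians lie between -0.12 and -0.01, while leukocyte and erythroid medians lie at -0.42 and -0.54 and the acinar median at 0.24.

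Neighbouring stromal groups were set beside the members without a test. Of 22 collagen chain genes 0 passed the cutoff in either direction, and their median was -0.03. *Col1a1* and *Col1a2*, which encode the chains of the main fibrillar collagen of fibroblasts, had differences of -0.10 and -0.11, and *Col3a1* had -0.04. *Col6a3* was the lowest at -0.20 and *Col4a5*, an X-linked basement membrane chain gene, the highest at 0.18. Of 20 endothelial genes 4 were lower and 0 higher, with a median of -0.09, among them the junction gene *Cldn5* at -0.36 and the adhesion gene *Icam2* at -0.42. Of 18 mesenchymal transcription factor genes 3 were lower and 2 higher, with a median of -0.10. *Tlx1* and *Nkx2-5*, which act in the spleen anlage beside the pancreas, each had -0.46. *Isl1*, which is also an endocrine gene, had 0.47 and *Gata4*, which is also expressed in acinar cells, had 0.27.

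Markers of other cell types also differed between the arrays, blood and liver markers mostly in the same direction as the members and epithelial markers mostly in the other. Of 18 leukocyte genes 13 were at least 1.2-fold lower and 0 higher, with a median of -0.42 and a summed linear level of 5447 in *Mafk*-Tg and 8573 in WT. *Vim*, *Flna* and *Cnn2* are expressed in leukocytes as well as in mesenchyme. Of 13 erythroid genes 10 were lower and 0 higher, and their summed linear level was 3315 in *Mafk*-Tg and 4687 in WT. Among 14 hepatocyte genes, 8 were lower and 1 was higher, and their summed level was 5657 in *Mafk*-Tg and 6547 in WT. Of 15 acinar genes 0 were lower and 4 higher, with summed levels of 55080 in *Mafk*-Tg and 50010 in WT. Of 11 duct and trunk epithelium genes 0 were lower and 1 higher, with a median of 0.15. Of 13 endocrine genes 2 were lower and 7 higher, with a median of 0.27 and a summed linear level of 8740 in *Mafk*-Tg and 7510 in WT. The part of these cell types in the lower mesenchymal values was not tested.

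Striated muscle also expresses *Des*, *Tpm1* and *Tpm2*. Of 16 striated muscle genes, 1 was lower (6.25%) and 2 were higher (12.5%), with a median of 0.10. Over all genes 10.5% were lower and 7.96% higher, so these counts are near the background. Only 7 of the 16 lay at or above the median probe set level, *Actc1* being the only one of them past the cutoff. *Actc1*, the cardiac α-actin gene, had 7.46 in *Mafk*-Tg and 7.02 in WT. The defining genes *Myod1* and *Myog* had 6.09 and 5.45 in *Mafk*-Tg, against 6.08 and 5.34 in WT. *Myog* lay below the median probe set level on both arrays. Of 11 nerve and glial genes, 6 of them at or above that level, 0 were lower and 2 higher, with a median of 0.07.

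*Flna* and *Bgn* are X-linked. Of 359 X-linked genes at or above the median probe set level, 26 were lower by the cutoff (7.24%) and 35 higher (9.75%), with a median of 0.01. Over all genes of that level these shares were 5.87% and 5.58%. *Flna*, at -0.29, lay among the lower ones. Without the X-linked members, 4 of 42 members were at least 1.2-fold lower, beside 10.5% of all genes.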

How the data were processed

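The authors had used Affymetrix Expression Console to scale the arrays and to reduce probe signals to 1 value per probe set. Its version and its algorithm were not given in the sources used here. Deposited values are log2 values between 0.51 and 14.01, with medians of 6.01 in *Mafk*-Tg and 6.01 in WT, and were used without further scaling. Of 35556 probe sets, 21789 had 1 gene symbol in the platform table, 1621 had several and 12146 were unnamed here. Gene values are means of probe sets with 1 symbol. The number of arrays, 1 per genotype, limits the precision of every value, and no test was run.

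Members, roles and lists were chosen with earlier results of these data known. Of 327 entries in the 20 lists, 300 were measured, with older symbols matched by gene ID through the RefSeq table of GRCm38.p6. All measured members are named. From each other list described in detail, up to 3 of the largest differences at or above the median probe set level are named, and *Fhl1*, *Fhl2*, *Csrp2*, *Ppp1r12a*, *Kcnj8*, *Abcc9*, *Notch3*, *Prelp*, *Fmod*, *Vcan*, *Tcf21*, *Nid1*, *Fbln7*, *Ltbp1* to *Ltbp4*, *Wt1*, *Col1a1*, *Col1a2*, *Col3a1*, *Gata4*, *Myod1* and *Myog* were added after their values were seen. Alternatives were equal medians, quantile normalization, a loess with a span of 0.3, the brightest probe set, leaving out dim or X-linked members, and a 1.5-fold cutoff. The steps were tested on simulated data with planted changes larger than the difference of any member. Whether shifts of the size seen in the members stand out from noise was not tested. Computations used pandas 2.3.3 and numpy 2.4.6 under Python 3.11.15, the loess of statsmodels 0.14.6, and matplotlib 3.10.9 for plots.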

Additional observations from a re-analysis of the deposited data

How the results depend on the processing

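No paired analysis was possible because each genotype has 1 array. At a cutoff of 1.5-fold, 0 members were lower in *Mafk*-Tg, against 5 at 1.2-fold, since the lowest member reached 1.35-fold. With equal medians, quantile normalization and the loess, the same 5 genes were lower, 0 were higher, and 36 to 38 of the 44 members lay below 0. The median of the members ran from -0.11 to -0.10 over all alternatives, and no member moved by more than 0.03. The contractile median minus the fibroblast median ran from -0.03 to 0.00, so its sign was not stable. Taking the brightest probe set changed nothing, as each member has 1. Dim genes such as *Myocd*, *Lmod1* and *Msln* are limited by signal over background.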
